A study of Hypsibius exemplaris with 24 samples.

Results

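Whole tardigrades frozen 6 and 9 h after the end of a bleomycin exposure were compared with tardigrades frozen at 3 h. The comparison takes 9 of the 24 libraries of the series. The 3 libraries of 6 h and the 3 libraries of 9 h form 1 group of 6, and it is set against the 3 libraries of 3 h. Each library holds RNA of 50 whole *Hypsibius exemplaris*, a freshwater tardigrade. The pools of 6, 9 and 3 h are labelled as biological replicates, with no batch or date, and their handling differed by its length alone as far as the labels say. They spent 24 h in 100 µM bleomycin in mineral water, were washed, and were then fed the green alga *Chlorella* on agar at 18 °C until they were frozen. The other groups, 3 libraries each, date from the end of the exposure (0 h), from 1, 12 and 24 h later, and from 24 h in water alone (the control). No unexposed pool kept on food for the same hours is used here, so time since the exposure and time on food cannot be told apart.

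Bleomycin is a drug that cuts DNA strands, and cells answer such breaks by raising transcripts for repair and for the arrest of division. Tardigrades are known for surviving strong damage of this kind, and repair transcripts are known to rise steeply in them after ionizing radiation and after bleomycin. How transcript levels move in the hours after the drug is removed is the question that a time series of this kind addresses.

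Levels are TPM, a length-corrected share of each library's transcripts, divided by 1 scale factor per library. They are called scaled TPM here. A fold change is the mean log2(scaled TPM + 1) of one group minus that of the other, and so understates the change of transcripts with low levels. Sequencing depth cannot be read from TPM, so it is unknown and no counting error can be given. Each library listed 14984 to 17173 transcripts above 0. In whole animals, fewer cells of a type and less RNA per cell cannot be told apart. The table pairs no identifier with a gene name, so 0 of the lists of genes by function and of tissue markers could be matched, and transcripts are described by identifier and level over time. Across transcripts, as a description, Pearson's r was 0.942 to 0.960 between libraries of 9 h and of 6 h (transcripts are not replicates). It was 0.916 to 0.953 between libraries of 6 h and of 3 h, and 0.943 to 0.958 among the libraries of 3 h.

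At 6 and 9 h, 209 transcripts were higher than at 3 h and 317 were lower, among 16490 tested. These 526 transcripts were 3.19% of those tested, 1.27% higher and 1.92% lower (limma, adjusted p under 0.05). Most changes were close to 2-fold. The median log2 fold change was 0.91 for the risen transcripts (quartiles 0.72 and 1.32) and -1.04 for the fallen ones (quartiles -1.37 and -0.80). Without adjustment, 17.2% of transcripts had a p under 0.05. At least 2-fold changes numbered 95 rises and 170 falls, together 1.61% of the transcripts tested. The libraries of 6 and 9 h did not overlap those of 3 h for 187 of the 209 risen and 293 of the 317 fallen transcripts. Over all transcripts tested, such separation was seen upward for 4.16% and downward for 5.51%. The same libraries chose the 526 transcripts, so their separation is largely fixed by the choice. With 1 library left out in turn, the count of 526 fell most for replicates 1 and 3 of 3 h. Leaving out replicate 1 of 3 h gave 164 calls, 153 of them among the 526. Leaving out replicate 3 of 3 h gave 288, of which 250 were among the 526. Without replicate 2 of 3 h the count was 414, and without replicates 2 and 3 of 6 h in turn 358 and 366.

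**Figure D1:**
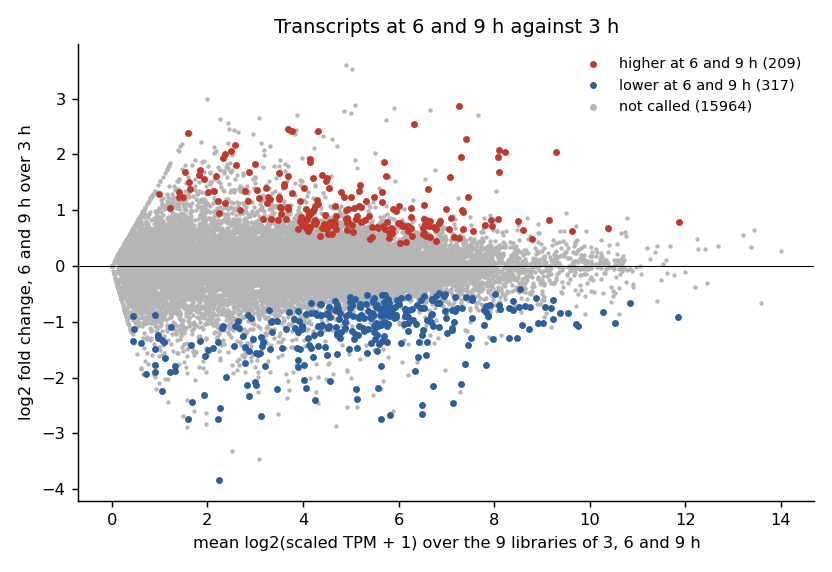
The horizontal axis gives the mean log2(scaled TPM + 1) of each transcript over the 9 libraries of 3, 6 and 9 h, and the vertical axis its log2 fold change at 6 and 9 h over 3 h. Red points are the 209 transcripts called higher, blue points the 317 called lower, and grey points those not called, and most called points lie within 2 on the log2 scale of the line at 0.

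The called transcripts were of middle to high level. The risen transcripts had a median of 35.8 scaled TPM at 6 and 9 h and 18.4 at 3 h, and the fallen ones a median of 32.8 at 6 and 9 h and 65.8 at 3 h. Over all transcripts tested the median was 12.6 at 6 and 9 h and 12.3 at 3 h. Of transcripts with a mean of 50 to 500 scaled TPM over all libraries, 2.40% rose and 3.95% fell. Of those under 5 scaled TPM, 0.349% rose and 0.582% fell. Few calls involved transcripts listed at 0. A value of 0 was listed in some library of 6 or 9 h for 22 of the fallen transcripts, and in all 6 of them for 1. Among the risen transcripts it was listed in some 3 h library for 5, and in all 3 of them for 1. Over all 16490 transcripts tested the same counts were 2526 and 104 for 6 and 9 h, and 1893 and 313 for 3 h. Together the risen transcripts held 2.48% ± 0.216 of all TPM at 6 and 9 h (SD, n = 6) and 1.26% ± 0.136 at 3 h (SD, n = 3). The fallen ones held 2.96% ± 0.193 at 6 and 9 h (SD, n = 6) and 5.65% ± 0.274 at 3 h (SD, n = 3). These shares describe the choice of the transcripts and were not tested.

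The largest rise was that of BV898_12195. It was at 319, 380 and 420 scaled TPM in replicates 1 to 3 of 6 h and at 254, 300 and 179 in those of 9 h, against 42.3, 19.1 and 76.8 at 3 h. All 6 later libraries lay above all 3 h libraries. On the log2 scale it rose by 2.87 (SE 0.53, limma, adjusted p = 0.00413), and it was called in all 22 alternatives tried. BV898_04116 was at 113, 163 and 147 at 6 h and at 102, 212 and 147 at 9 h, against 30.3, 9.86 and 43.2 at 3 h. The rise was 2.54 on the log2 scale (limma, adjusted p = 0.0359), but the call was lost with 6 of the 9 libraries left out in turn, with an adjusted p of 0.150 without 3 h replicate 2. Both transcripts had been high at 1 h, with means of 469 for BV898_12195 and 171 for BV898_04116. At 24 h they were at 52.3 and 24.3, close to their means of 46.1 and 27.8 at 3 h. Their means were 109 and 94.6 in the control, 5.76 and 0.226 at 0 h, and 138 and 39.7 at 12 h.

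The largest fall was that of BV898_18167, to levels near 0. It was at 0.961, 0 and 0 at 6 h and at 1.31, 1.27 and 4.14 at 9 h, against 14.9, 31.2 and 40.3 scaled TPM at 3 h. The groups did not overlap, and it fell by 3.84 on the log2 scale (SE 0.90, limma, adjusted p = 0.0225). With any 1 of the 3 h libraries left out, its adjusted p lay between 0.0590 and 0.0914, and with a pseudocount of 0.1 it was 0.0636. BV898_08191 was at 39.0, 41.1 and 20.5 at 6 h and at 16.0, 20.7 and 23.9 at 9 h, against 99.7, 265 and 204 at 3 h. It fell by 2.74 on the log2 scale (limma, adjusted p = 0.0339), and the call was lost with 7 of the 9 libraries left out in turn, with an adjusted p of up to 0.111. At 1 h it had been at 15.6 ± 3.91, and at 24 h it was at 467 ± 94.1 (SD, n = 3), so that the 3 and 24 h pools were high and those of 1, 6 and 9 h low. Its means were 20.1 at 0 h and 24.0 at 12 h. The control libraries were far apart, at 153, 9.32 and 398 in replicates 1 to 3.

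For transcripts named by the rule for largest changes, the separation of the groups was part of the choice. The lowest p-values, looked up after the values were seen, belonged to transcripts with narrower spread. BV898_03807 was at 304, 251.4 and 250 at 6 h and at 342, 308 and 269 at 9 h, against 54.7, 59.1 and 61.6 scaled TPM at 3 h. It rose by 2.27 on the log2 scale (SE 0.18, limma, adjusted p = 5.55e-07). Unlike the risen transcripts above, BV898_03807 was low already at 1 h, at 54.9 ± 11.2, and it was at 19.7 ± 2.36 at 24 h (SD, n = 3). In the control it was at 238 ± 41.2 (SD, n = 3). BV898_19153 was at 89.2, 71.6 and 66.9 at 6 h and at 57.6, 103 and 93.4 at 9 h, against 572, 404 and 358 at 3 h. It fell by 2.45 on the log2 scale (SE 0.22, limma, adjusted p = 1.46e-06). The control held 4.65 ± 2.00 and the 1 h pools 124 ± 20.2 (SD, n = 3), so the levels at 6 and 9 h were below those of 1 h and above those of the control. Both BV898_03807 and BV898_19153 were called in all 22 alternatives.

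**Figure D2:**
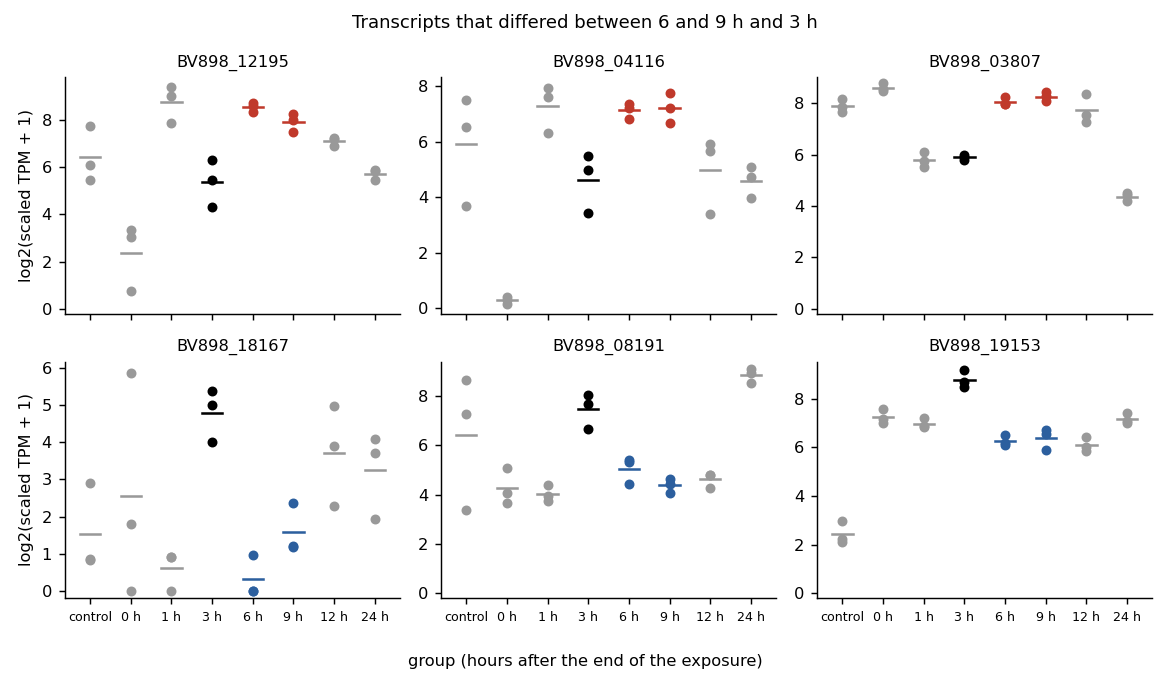
Each panel shows 1 transcript, with the group on the horizontal axis and log2(scaled TPM + 1) per library on the vertical axis (points are libraries, bars are means of 3, coloured for 6 and 9 h and black for 3 h). The upper 3 transcripts were higher at 6 and 9 h than at 3 h, and the lower 3 were lower.

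In absolute level the largest differences, also looked up afterwards, were in abundant transcripts that changed by less. BV898_10202 averaged 4588 ± 1200 scaled TPM at 6 and 9 h (SD, n = 6) and 2623 ± 619 at 3 h (SD, n = 3), which is 0.80 more on the log2 scale (limma, adjusted p = 0.0179). Its lowest library of 6 and 9 h was at 3235 and its highest 3 h library at 3148. Its adjusted p was 0.131 without 3 h replicate 3, and 0.0969 when the 9 libraries were fitted alone. BV898_00195 averaged 2982 ± 419 at 6 and 9 h (SD, n = 6) and 5585 ± 526 at 3 h (SD, n = 3), a difference of -0.91 on the log2 scale (limma, adjusted p = 0.00217). Its groups were far apart, with 3625 the highest value at 6 and 9 h and 5099 the lowest at 3 h.

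Taken singly, the 6 h libraries differed from those of 3 h for 283 transcripts (1.72%), 78 higher (0.473%) and 205 lower (1.24%). The 9 h libraries differed from them for 186 (1.13%), 78 higher (0.473%) and 108 lower (0.655%). Both comparisons use the same 3 h libraries. Fitted with those 2 groups alone the counts were 70 at 6 h and 49 at 9 h, and with library quality weights 1271 and 619. Without 3 h replicate 1 the counts were 89 at 6 h and 103 at 9 h. Of the 6 h libraries, leaving out replicate 2 gave 92 and leaving out replicate 3 gave 125. The count at 9 h was also lowered to 115 by leaving out replicate 3 of 3 h. Of the 9 h libraries, leaving out replicate 1 gave 97 and leaving out replicate 3 gave 53. BV898_03400 had the second largest rise at 6 h, to 1189 ± 202 against 242 ± 11.7 scaled TPM at 3 h (SD, n = 3), which is 2.28 more on the log2 scale (limma, adjusted p = 3.97e-04). At 9 h it averaged 849 ± 107 (SD, n = 3). BV898_03163 was at 0, 0.529 and 0 at 6 h against 11.7, 9.13 and 17.5 at 3 h, but at 1.09, 6.90 and 2.78 at 9 h. At 6 h the log2 fold change was -3.54 (limma, adjusted p = 0.0232). Pooled over both times it was -2.64 and missed the threshold (limma, adjusted p = 0.0577), which 7 of 22 alternatives passed. The largest falls at 9 h belonged to BV898_03271 and to transcript t02 of BV898_17391. BV898_03271 was at 41.9, 34.6 and 45.7 at 9 h and at 66.4, 48.6 and 66.5 at 6 h, against 640, 232 and 151 at 3 h. Its pooled log2 fold change of -2.49 leaned on 3 h replicate 1, without which it was -1.91 (limma, adjusted p = 0.137). BV898_17391 t02 was at 2.24, 9.61 and 0 at 9 h against 26.3, 23.3 and 13.2 at 3 h. Its 6 h values of 7.98, 14.8 and 14.1 overlapped those of both times. Summed over its locus, the pooled log2 fold change was 0.22, and the pooled value for this isoform, -1.70, was not called (limma, adjusted p = 0.153). How reads are split between isoforms of a locus is an estimate.

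The 2 pooled times themselves were close. They were pooled because they differ little in these data, so this closeness is no separate support for the pooling. Between 9 and 6 h limma called 0 transcripts (0%). An unadjusted p under 0.05 was found for 665 (4.03%), below the 824.5 that chance gives among all tested. Library quality weights gave 1 call, as did leaving out 6 h replicate 1. Over all transcripts tested the log2 difference of 9 h over 6 h had quartiles of -0.22 and 0.20. The 209 risen transcripts had a median difference of 0.01, with 108 above 0. The 317 fallen ones had a median of 0.12, with quartiles of -0.09 and 0.30, and 201 of them (63.4%) were higher at 9 h than at 6 h, against 49.1% of all tested. Of the fallen transcripts 24 (7.57%) and of the risen ones 11 (5.26%) had an unadjusted p under 0.05 for this difference. The count of 0 does not show that levels stood still. Pooling gave 526 calls, and 518 when 6 and 9 h kept a mean each and the average of both was set against 3 h.

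The libraries outside the comparison were then read for the same 526 transcripts. None of their values enters the fold change that chose the transcripts, although all 24 libraries entered the low-level filter and the estimate of spread. For each transcript the mean over the control, 0, 1, 12 and 24 h was taken as a base, and each library was given by the median deviation of the set from it. The risen transcripts lay at 0.21 to 0.35 on the log2 scale in the 6 libraries of 6 and 9 h and at -0.70 to -0.63 at 3 h, which their choice fixes. At 24 h they lay at -0.65 to -0.50, on the side of 3 h. In the control they lay at 0.37 to 0.48, at 0 h at 0.10 to 0.21 and at 1 h at 0.09 to 0.17. These groups were all on the side of 6 and 9 h. At 12 h they lay at -0.06 to 0.05. The 24 h libraries are part of the base, so their low level raises the deviations of the other groups. Of the risen transcripts 34.4% had their lowest mean at 24 h, against 13.8% of all tested. Their highest mean was in the control for 32.1%, against 19.9%. The fallen transcripts lay the other way. They lay at -0.44 to -0.16 at 6 and 9 h and at 0.57 to 0.98 at 3 h, at -0.21 to -0.10 at 1 h and at 0.10 to 0.45 at 24 h. In the control they lay at -0.27 to -0.14, at 0 h at -0.01 to 0.03 and at 12 h at 0.02 to 0.20. The control was thus also on the side of 6 and 9 h. Within 3 h the fallen set was highest in replicate 1, the library without which most calls were lost. What sets this library apart was not tested.

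**Figure D3:**
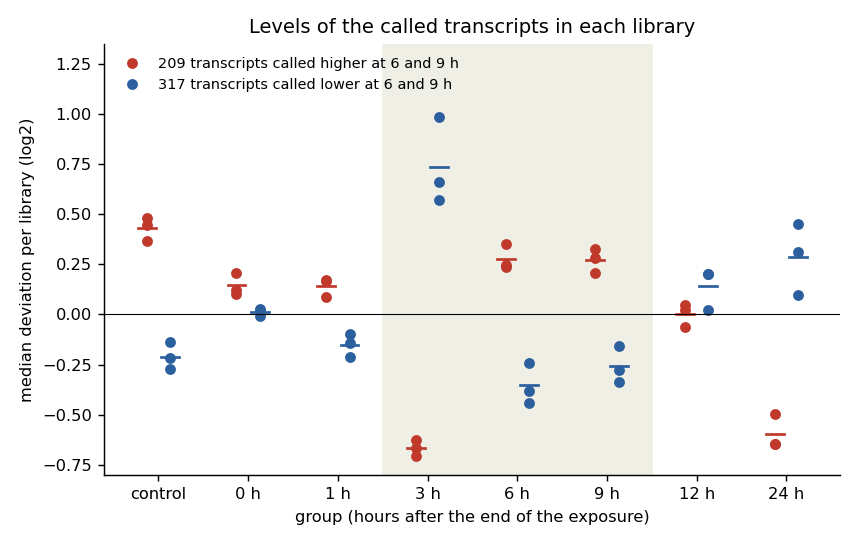
The horizontal axis gives the group and the vertical axis the median deviation, on the log2 scale, of the 209 risen (red) and 317 fallen (blue) transcripts in each library from their mean over the groups outside the comparison (points are libraries, bars means of 3). The shaded groups of 3, 6 and 9 h chose the transcripts, and outside them the sets lie at -0.65 to -0.50 (red) and 0.10 to 0.45 (blue) at 24 h.

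The comparison of 24 h with 1 h, chosen after these levels were seen, was then read for the same transcripts, in libraries other than the 9. Of the 209 transcripts that rose at 6 and 9 h, 24 h pools were called lower than 1 h pools for 115 (55.0%) and higher for 14 (6.70%). Over all transcripts tested 13.6% were called lower and 16.9% higher, together 30.5%. Of the 317 that fell, 123 (38.8%) were called higher at 24 h than at 1 h and 28 (8.83%) lower. Their median log2 fold changes at 24 h over 1 h were -0.77 for the risen and 0.43 for the fallen transcripts, and 0.02 for all tested. Well expressed transcripts are called more often. Among the 11332 transcripts with a mean of at least 5 scaled TPM, 18.0% were called lower and 22.2% higher at 24 h. In each of the 28 alternatives tried, both shares stayed above the share among all transcripts tested. The share of risen transcripts called lower ranged from 47.2% to 76.2%, and that of fallen ones called higher from 28.5% to 62.6%. These alternatives repeat a comparison chosen after its levels were seen, so they do not test that choice. In the main fit, spread was estimated from all 24 libraries, and transcripts of low spread are called more often in any comparison. At 1 h over 0 h the risen transcripts exceeded all tested both ways (23.9% against 12.6% higher, 25.8% against 10.2% lower). The excess over all tested is thus partly set by the choice of transcripts, and how much was not tested.

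**Figure D4:**
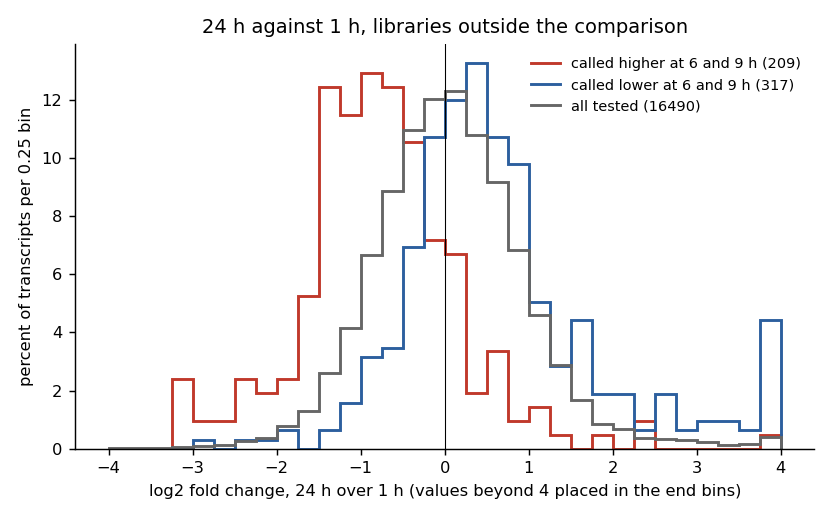
The horizontal axis gives the log2 fold change of 24 h over 1 h and the vertical axis the percent of transcripts in each bin, red for the 209 called higher at 6 and 9 h than at 3 h, blue for the 317 called lower and grey for all tested. The red curve lies left of the grey one, with a median of -0.77, and the blue one to its right, with a median of 0.43.

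At 12 h the picture was mixed. Against 1 h, the 12 h pools were lower for 68 of the risen transcripts (32.5%) and higher for 49 (23.4%), and over all transcripts tested 19.7% were lower and 20.4% higher, together 40.1%. Of the fallen ones 109 (34.4%) were higher and 37 (11.7%) lower. Among transcripts with a mean of at least 5 scaled TPM, 25.5% were lower and 27.3% higher. The share of risen transcripts called lower was 20.0% when replicate 1 of 3 h was left out, no more than the share among all tested, and was 51.0% when replicate 2 was. The largest changes between 12 and 1 h were in transcripts with other courses. BV898_15870 rose to 286 ± 40.9 at 12 h against 3.79 ± 4.25 at 1 h (SD, n = 3), and climbed at each time between, with means of 24.7 at 3 h, 56.2 at 6 h and 108 at 9 h. Its rise at 6 and 9 h over 3 h was itself just called (limma, log2 fold change 1.61, adjusted p = 0.0490) and was lost in 11 of 22 alternatives. BV898_09814 was at 46.9 to 212 scaled TPM at 12 h and at 38.6, 0 and 0 at 1 h. BV898_05404 was at 0 to 15.2 at 12 h against 40.6 to 85.7 at 1 h, and BV898_15348 at 0 to 12.8 against 32.8 to 64.9. None of these last 3 was called between 6 and 9 h and 3 h, where their adjusted p lay between 0.247 and 0.989 (limma).

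Part of the 526 transcripts also differed between the end of the exposure and the control. At 0 h against the control 38 of the risen transcripts (18.2%) were called lower and 5 (2.39%) higher, and among all tested 4.12% were lower and 3.75% higher, together 7.87%. Of the fallen transcripts 48 (15.1%) were called higher and 16 (5.05%) lower. Between 1 and 0 h the risen transcripts were split, with 50 higher (23.9%) and 54 lower (25.8%), against 12.6% and 10.2% of all tested (22.8% together) and 16.5% and 12.6% of those with a mean of at least 5 scaled TPM. Of the fallen ones 71 (22.4%) were lower at 1 h than at 0 h and 30 (9.46%) higher. The comparisons of 0 h with the control and of 1 h with 0 h share the 0 h libraries with opposite sign, so a high or low value there moves both, in opposite directions. The comparisons of 24, 12 and 0 h with 1 h share the 1 h libraries.

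**Figure D5:**
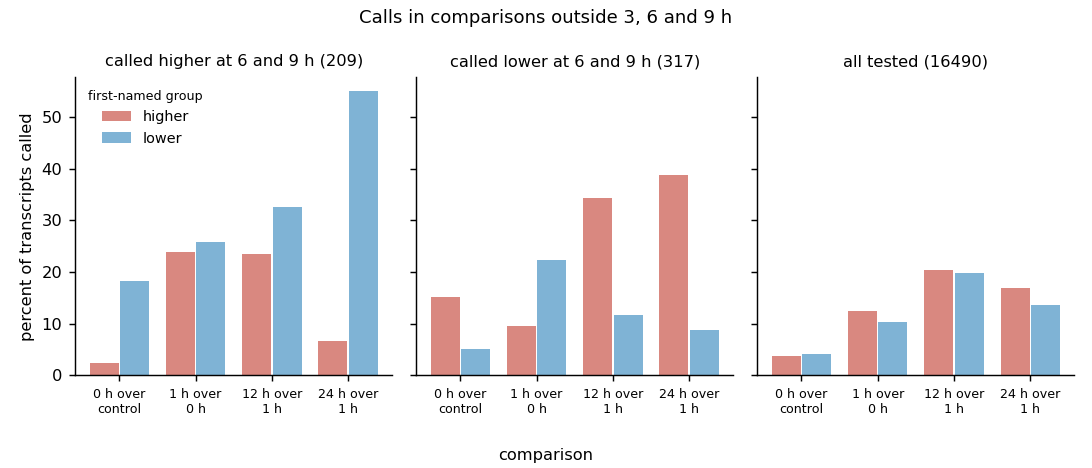
Each panel gives, for a set of transcripts, the percent called higher (red bars) and lower (blue bars) in the first-named group of 4 comparisons on the horizontal axis, none of which uses a library of 3, 6 or 9 h. The tallest bar is the 55.0% of risen transcripts called lower at 24 h than at 1 h, against 13.6% of all tested.

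Transcripts that stood out elsewhere in the series were also looked up between 6 and 9 h and 3 h. Of 20 such transcripts, chosen with their changes in other comparisons of these data known, 1 was called higher and 2 lower. That is 15%, against 3.19% of all tested (1.27% higher and 1.92% lower), and their median log2 fold change was -0.34, against 0.02 for all tested. Of 4 transcripts raised by the exposure, BV898_04740 fell, where 1.92% of all tested did. BV898_04740, which no control library held above 0.953, was at 148, 147 and 93.1 at 6 h and at 106, 143 and 123 at 9 h, against 324, 251.5 and 454 at 3 h. It fell by 1.41 on the log2 scale (SE 0.30, limma, adjusted p = 0.0110). At 12 h it was back at 405 ± 119 and at 24 h at 383 ± 182 (SD, n = 3). A pseudocount of 0.1 gave an adjusted p of 0.167. Leaving out replicate 1 of 3 h gave 0.0551 and leaving out replicate 3 gave 0.0782. BV898_10457, also raised by the exposure, was at 293 to 430 at 6 and 9 h and at 389 to 523 at 3 h, which overlap.

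BV898_14257, which averaged 302 at 0 h and 12.6 in the control, was at 88.1, 74.4 and 69.6 at 6 h and at 97.6, 109 and 109 at 9 h, against 93.5, 101 and 129 at 3 h. The groups overlapped, and the difference of -0.25 on the log2 scale (SE 0.27) did not pass the test (limma, adjusted p = 0.694). An exact two-sided permutation test of the 6 libraries against 3 gave p = 0.262, where 0.0238 is the smallest this design allows.

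Of 3 transcripts lowered by the exposure and regained later, BV898_01325 rose, where 1.27% of all tested did. It was at 320, 561 and 540 at 6 h and at 617, 328 and 589 at 9 h, against 103, 168 and 87.5 at 3 h, which is 2.04 more on the log2 scale (limma, adjusted p = 0.0158). It had been at 411 ± 112 at 1 h (SD, n = 3). With replicate 1 of 3 h left out the adjusted p was 0.0912, with replicate 3 left out 0.0799, and with a pseudocount of 0.1 it was 0.0787. BV898_17655 of the same list went the other way in level without passing the test. It was at 175, 78.3 and 53.4 at 6 h and at 66.0, 167 and 72.3 at 9 h, against 377, 381 and 610 at 3 h, with no overlap. Its log2 fold change was -2.27 (SE 0.90, limma, adjusted p = 0.196), and it was called lower when the 9 libraries were fitted alone (adjusted p = 0.0126) and with quality weights (adjusted p = 0.0344). Over its alternatives the adjusted p reached 0.413. Of 11 transcripts lowered in recovery, BV898_17048 fell, where 1.92% of all tested did. It was at 6.98, 9.94 and 5.18 at 6 h and at 1.73, 13.6 and 2.77 at 9 h, against 18.6, 40.2 and 34.0 at 3 h. It fell by 2.21 on the log2 scale (limma, adjusted p = 0.0116). The adjusted p was 0.0564 with replicate 2 of 3 h left out and 0.0572 with replicate 3 left out. The 1 h pools held 1.46 ± 0.304 and the 24 h pools 71.1 ± 31.2 (SD, n = 3), so it too was higher at 3 and 24 h than at 1, 6 and 9 h. Its means of 84.4 in the control and 48.2 at 0 h were above its mean of 30.9 at 3 h. At 12 h its mean was 8.29. The 2 transcripts raised at 0 h and low at 24 h were not called.

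Neighbouring identifier numbers were called in the same direction for a minority of the risen and fallen loci, a larger share than among all loci. Of the 317 fallen loci 40 (12.6%) had a fallen locus at the next or previous number, against 3.29% of the 15806 loci tested. Of the 209 risen loci 21 (10.0%) had a risen one there, against 2.11%. A neighbour called in the other direction was held by 4 loci of each set. For the risen loci that is 1.91%, where 3.29% of all loci had a fallen neighbour. For the fallen loci it is 1.26%, where 2.11% of all loci had a risen neighbour. The longest run, picked out after it was seen, was that of the 5 loci BV898_12216 to BV898_12220, which fell with log2 fold changes between -2.38 and -1.56. The fallen loci also held a run of 4, BV898_14150 to BV898_14153, between -1.19 and -0.90. The longest run of risen loci was BV898_05860 to BV898_05862, between 0.84 and 2.42. The files give no positions, so numbers are not distances, and near-identical copies in such runs could share reads.

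Of 620 loci with several transcripts tested, 12 (1.94%) had a called one, in each case 1 of them, against 3.33% of all loci tested. No locus (0) had isoforms called in opposite directions.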

How the data were processed

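Pools of 50 whole animals were sequenced from libraries made with the NEBNext Ultra RNA kit. The authors deposited 1 table of TPM values for 20853 transcripts of 19939 loci in 24 libraries. DESeq2 1.22.2, RSEM 1.2.26, Bowtie2 2.2.9 and FastQC 0.11.3 are named without a role, per the submitters' processing notes. The genome build is not given in the sources used here. No counts are used here, so the depth per library is unknown.

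From the deposited TPM, 1 scale factor per library was computed (0.929 to 1.11 in the 9 libraries). The factors were 0.868, 0.855 and 0.664 at 12 h, 0.883, 1.07 and 0.877 at 24 h, and 1.08 to 1.10 at 1 h. Leaving out the scaling shifted log2 fold changes by a median of -0.42 for 12 h over 1 h. The shift was -0.19 for 24 h over 1 h and 0.03 for 6 and 9 h over 3 h. Only transcripts that reached 1 TPM in 3 or more libraries were tested (16490), and log2(scaled TPM + 1) was taken. limma 3.58.1 in R 4.3.3 (trend, robust) was fitted to all 24 libraries with the 6 and 9 h libraries as 1 group, and again with 8 groups for the other comparisons. p-values were adjusted by Benjamini-Hochberg over all transcripts tested, and calls are adjusted p under 0.05. The scripts were tested on simulated data. No 2 libraries held identical values (0 pairs).

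The members and lists were chosen with earlier results of these data known. The comparisons of 24 with 1 h, 1 with 0 h and 0 h with the control were added after the data were seen. Named transcripts are the 2 largest rises and the 2 largest falls per comparison among calls whose groups do not overlap and whose higher group averages 5 or more scaled TPM. Others are named as chosen after their values were seen. Lists of genes by function and of cell type markers matched 0 identifiers. Deviations of same-numbered libraries correlated between -0.256 and 0.243, above 0.1 for 2 of 9 pairs, so the numbers were not taken to pair the libraries. Alternatives covered scaling, pseudocount, filter, the libraries fitted, weights, a replicate block, locus sums, a fold minimum and leaving out each library.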

Additional observations from a re-analysis of the deposited data

Results flagged for a closer look

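The 6 libraries of 6 and 9 h were searched for a single library far from the other 5, which chance alone gives in a small share of groups. The 41 measures checked were the levels of the named transcripts, the summed levels of the risen and fallen sets, the scale factors and the numbers of transcripts above 0. BV898_00251 t02 and BV898_18341 were at 0 in all 6 libraries, so no library could stand apart for them. A library stood apart for 3 of them. BV898_18167 was at 4.14 scaled TPM in 9 h replicate 3, with the next value at 1.31. BV898_12466 was at 20.0 in 6 h replicate 2, with the next at 9.64. In transcript t02 of BV898_04654, 6 h replicate 2 was at 354, with the next at 169. BV898_12466 and BV898_04654 t02 were not called between 6 and 9 h and 3 h in any alternative.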

How the results depend on the processing

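The count of 526 was 1119 with quality weights and 265 with a 2-fold minimum, and 164 to 462 with 1 library left out. It lay between 452 and 626 in the other alternatives, and 0 of the 526 changed direction where they were tested (locus sums were not matched for this). The replicate block gave 560 calls, 217 higher and 343 lower, and changed no named call. For 6 h over 3 h the 283 calls were 70 with those libraries fitted alone, 1271 with weights and 89 to 291 with 1 left out. For 9 h over 3 h the 186 were 49 alone, 619 with weights, 123 with a 2-fold minimum and 53 to 153 with 1 left out. For 9 h over 6 h the 0 became 1 with weights, and 0 to 1 with 1 left out. For 12 h over 1 h the 6614 were 4152 with a 2-fold minimum and 4918 to 6423 with 1 left out.

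Of fallen transcripts, the share called higher at 24 h was 62.6% with weights (27.7% of all tested) and 28.5% to 44.9% with 1 library left out. At 12 h it was 21.4% unscaled (11.1% of all tested), 22.4% with a 2-fold minimum (13.1% of all tested) and 24.7% to 38.6% with 1 left out. Of risen transcripts, the share called lower was 47.2% to 76.2% at 24 h and 20.0% to 51.0% at 12 h with 1 left out. BV898_14257 stayed between -0.34 and -0.11.

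Direction changed for 4 uncalled transcripts. Summed per locus, BV898_17391 t02 was at 0.22 and BV898_00251 t02 at 0.36. With 1 library left out, BV898_00251 t02 was at -1.77 to 0, BV898_04948 at -0.62 to 0.011 and BV898_05404 at -0.41 to 0.41. The cause was not tested. Depth is unknown, so counting error cannot be set beside low levels such as those of BV898_18167.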
